A study of Mus musculus with 6 samples.

Results

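The GIMAP genes (GTPases of the immunity-associated protein family) were described in RNA-seq of splenic CD8+ T cells. The members were the 8 genes of the family named Gimap1, Gimap3, Gimap4, Gimap5, Gimap6, Gimap7, Gimap8 and Gimap9, taken by their gene names. They made up 8 of the 28773 genes in the data, and all 8 passed the filter on low values. The study asked how 2-deoxy-D-glucose (2DG), a glucose analogue that blocks glycolysis, acts on CD8+ T cells when it is given after microwave ablation (MWA) of a tumor. The MWA+PBS group (replicates 1 to 3) received the ablation and intraperitoneal PBS, and the MWA+2DG group (replicates 4 to 6) received the ablation and intraperitoneal 2DG. All 6 samples were CD8+ T cells taken with an isolation kit from mouse spleens on day 35, so the tumor and the ablation were shared by both groups. The strain, age and tumor model of these samples are not given in the labels used here. Nothing in the labels says that the replicates were separate animals, so p-values measure only the spread between these samples.

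GIMAP proteins are small GTP-binding proteins found mainly in lymphocytes, many of them anchored to the membranes of lysosomes, the endoplasmic reticulum or other organelles. Their genes sit side by side in 1 cluster. Mature T cells need several of them to stay alive without stimulation: loss of Gimap5 causes a severe shortage of peripheral T cells in mice and rats, and Gimap1 is needed for the upkeep of mature T and B cells. Gimap3 and Gimap5 have been linked to proteins of the Bcl2 family, and Gimap6 binds Gabarapl2, a protein of the ATG8 family that decorates autophagosomes.

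In the GENCODE M21 annotation the cluster lay on mouse chromosome 6 and ran in the order Gimap8, Gimap9, Gimap4, Gimap6, Gimap7, Gimap1, Gimap5 and Gimap3. It held 13 annotated features, 9 of them protein coding. Of the members, 6 were on the plus strand and 2, Gimap6 and Gimap3, on the minus strand. The 250 bases before the annotated start were taken from RefSeq (GRCm38.p6) and searched on both strands for short core motifs. Promoters are shown for Gimap4, which had the largest change, and Gimap3, which had the highest level in MWA+PBS. Gimap6 is shown because its window held a STAT-type match and no match to AGGAAG, the ETS pattern searched. Gimap1 is shown as a survival gene with an antisense transcript of its own. Capitals mark the motif matches. They are chr6:48684328-48684577 on the plus strand (Gimap4), chr6:48770852-48771101 on the minus strand (Gimap3), chr6:48708245-48708494 on the minus strand (Gimap6) and chr6:48738797-48739046 on the plus strand (Gimap1), each written 5′ to 3′ toward the gene.
Gimap4: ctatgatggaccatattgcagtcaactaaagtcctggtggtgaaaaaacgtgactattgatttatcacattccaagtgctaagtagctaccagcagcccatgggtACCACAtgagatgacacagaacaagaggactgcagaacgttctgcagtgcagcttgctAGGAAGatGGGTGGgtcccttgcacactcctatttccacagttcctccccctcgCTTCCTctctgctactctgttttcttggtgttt
Gimap3: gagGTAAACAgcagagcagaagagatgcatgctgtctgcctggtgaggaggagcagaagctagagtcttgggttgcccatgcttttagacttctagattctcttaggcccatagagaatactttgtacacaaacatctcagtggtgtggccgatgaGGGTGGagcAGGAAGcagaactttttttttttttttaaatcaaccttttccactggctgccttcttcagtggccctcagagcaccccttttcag
Gimap6: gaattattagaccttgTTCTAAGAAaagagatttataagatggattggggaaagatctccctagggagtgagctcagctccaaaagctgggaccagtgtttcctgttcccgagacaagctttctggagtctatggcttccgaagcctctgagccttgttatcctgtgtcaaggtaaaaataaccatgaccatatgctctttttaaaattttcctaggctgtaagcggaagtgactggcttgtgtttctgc
Gimap1: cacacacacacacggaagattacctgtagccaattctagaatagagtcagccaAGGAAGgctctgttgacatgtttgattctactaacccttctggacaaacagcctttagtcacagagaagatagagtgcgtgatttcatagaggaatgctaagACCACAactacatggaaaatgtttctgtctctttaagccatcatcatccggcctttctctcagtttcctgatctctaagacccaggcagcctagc

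RefSeq gave 9 such windows for the 8 members, because Gimap8 had 2 overlapping ones. An ETS core (AGGAAG) was found in 7 of the 9 windows, against 29.5% of 32851 promoters of the same length. Every member except Gimap6 had a match to this exact pattern, and Gimap4 had 2 matches. Other forms of the ETS core were not searched, and the Gimap6 window holds CGGAAG, which was not counted. A KLF core (CCACCC) was in 5 windows, those of Gimap3, Gimap4, Gimap5, Gimap8 and Gimap9, against 28.1% of promoters. A RUNX core (TGTGGT) was in 3 windows, those of Gimap1, Gimap4 and Gimap7, against 14.0%. The STAT-type GAS core (TTCNNNGAA) was in 2 windows, those of Gimap6 and Gimap8, against 7.02%, and in Gimap8 it overlapped the ETS match. A FOXO core (TGTTTAC) was in the Gimap3 window alone, against 3.17% of promoters, and the interferon element ISRE was in none, against 2.98%. The motifs were picked after the expression values had been seen, and a match describes letters in the window, not a bound site.

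All 8 GIMAP genes were higher in MWA+2DG than in MWA+PBS. The increase ran from 1.40-fold for Gimap9 to 2.00-fold for Gimap4 in the mean FPKM, the unit of fragments scaled by transcript length and library total. All 8 passed an adjusted p under 0.05 (limma, Benjamini-Hochberg over the 12444 tested genes) and none was lower, where 22.3% of all tested genes were called higher and 17.1% lower. The study used a log fold change beyond 0.25 at P under 0.05, read here as log2 and unadjusted. Under this rule all 8 were also higher, against 21.6% of tested genes. In all 8 the lowest MWA+2DG sample lay above the highest MWA+PBS sample, which was so for 30.2% of tested genes. The median log2 fold change of the 8 genes, on the log2(FPKM + 1) scale, was 0.67, against 0.05 over all tested genes.

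**Figure D1:**
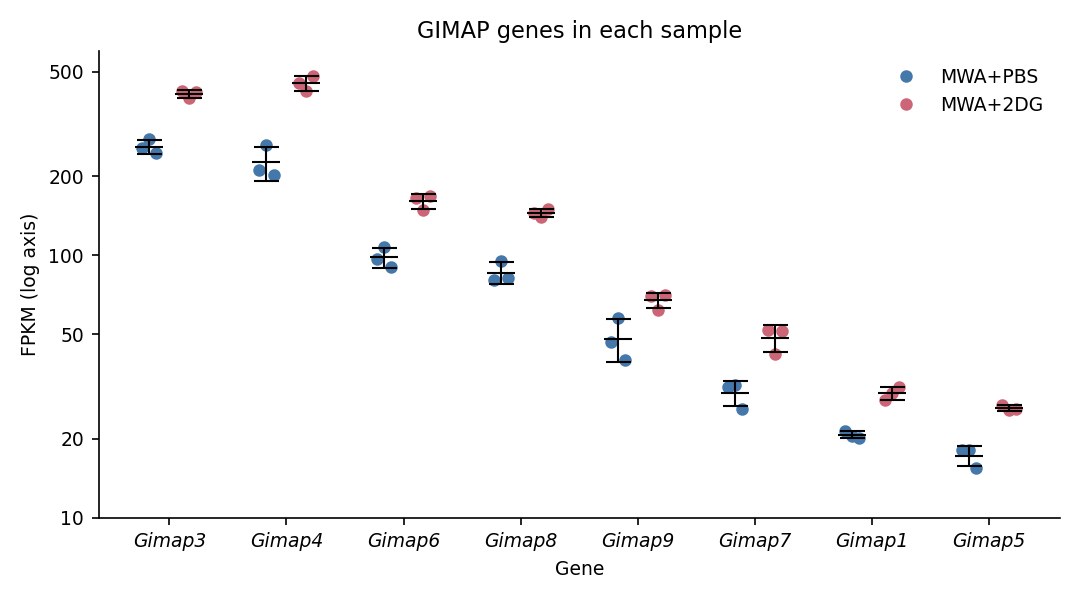
FPKM of the 8 GIMAP genes (log axis) in each MWA+PBS sample (blue) and each MWA+2DG sample (red), with the mean and SD of each group of 3 in black. Every red point lies above every blue point of the same gene, and Gimap3 and Gimap4 stand above the other 6 genes in both groups.

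Gimap4, which promotes the death of T cells once apoptosis has begun, had the largest change of the family. Its FPKM was 211.30, 263.67 and 201.75 in MWA+PBS and 451.84, 419.82 and 480.91 in MWA+2DG. The groups did not overlap, and replicate 2 was the highest of the MWA+PBS samples. The means were 225.6 ± 33.3 and 450.9 ± 30.6 FPKM (SD, n = 3), a log2 difference of 1.0 ± 0.11 SE (adjusted p = 0.000336, limma). Gimap4 held place 152 among the 12444 tested genes ordered by increase.

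Gimap3, a close relative of Gimap5 that acts with it in T cell survival, had the highest level of the family in MWA+PBS. Its FPKM was 255.26, 276.34 and 244.40 in MWA+PBS and 420.18, 395.84 and 417.38 in MWA+2DG. No MWA+PBS sample reached the lowest MWA+2DG sample. The log2 difference was 0.67 ± 0.06 SE (adjusted p = 0.000209, limma), a 1.59-fold increase.

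Gimap8, the largest protein of the family with several GTP-binding domains, read 80.48, 95.22 and 81.65 FPKM in MWA+PBS and 144.75, 139.40 and 149.57 FPKM in MWA+2DG. The samples of MWA+2DG lay close together and well above those of MWA+PBS. Its log2 fold change of 0.75 ± 0.07 was the second largest of the family (SE, limma adjusted p = 0.000237). Gimap6, the partner of Gabarapl2, read 96.93, 107.38 and 90.31 FPKM in MWA+PBS and 165.60, 148.37 and 168.20 FPKM in MWA+2DG, again without overlap. Its log2 difference was 0.71 ± 0.08 SE (adjusted p = 0.000449, limma).

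Gimap7, which stimulates the GTPase activity of its partners, read 31.53, 32.06 and 26.05 FPKM in MWA+PBS and 52.02, 42.00 and 51.32 FPKM in MWA+2DG. Replicate 5 was the lowest MWA+2DG sample and still above every MWA+PBS sample. The log2 difference was 0.68 ± 0.11 SE (adjusted p = 0.00228, limma).

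The lymphocyte survival genes Gimap5 and Gimap1 had the lowest levels of the family. Gimap5 read 18.16, 18.09 and 15.47 FPKM in MWA+PBS and 26.90, 25.82 and 25.92 FPKM in MWA+2DG, so that the groups were apart by more than the range of either one. Its log2 difference was 0.58 ± 0.07 SE (adjusted p = 0.000628, limma). Gimap1 read 21.39, 20.56 and 20.18 FPKM in MWA+PBS and 28.13, 29.74 and 31.59 FPKM in MWA+2DG. The MWA+PBS samples of Gimap1 were the closest together of the family, with a mean of 20.7 ± 0.619 FPKM (SD, n = 3). Its log2 difference was 0.50 ± 0.06 SE (adjusted p = 0.000526, limma).

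Gimap9 had the smallest log2 difference, close to that of Gimap1, and the largest SE of the family. It read 46.91, 57.61 and 39.88 FPKM in MWA+PBS and 69.89, 62.08 and 70.32 FPKM in MWA+2DG. Replicate 2 of MWA+PBS and replicate 5 of MWA+2DG came close to each other, although the groups did not overlap. The log2 difference was 0.49 ± 0.13 SE (adjusted p = 0.0179, limma). This call was lost when MWA+PBS replicate 1 (limma adjusted p = 0.0529), MWA+2DG replicate 4 (0.0577) or MWA+2DG replicate 6 (0.0570) was left out, whereas the other 7 genes kept theirs whichever sample was left out.

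Most members shared an order of samples within the groups, and many T lineage genes shared it too. In MWA+PBS, replicate 2 was the highest sample for Gimap3, Gimap4, Gimap6, Gimap7, Gimap8 and Gimap9, and replicate 1 for Gimap1 and Gimap5. In MWA+2DG, replicate 5 was the lowest sample for every member except Gimap1, for which replicate 4 was. Of the 20 T lineage genes described below, all but Cd3e, Cd28 and Bcl11b also had replicate 5 as their lowest MWA+2DG sample. Replicate 2 was the highest MWA+PBS sample for Cd2, Cd3g, Cd8a, Cd28, Lat, Skap1, Trac, Trbc1 and Trbc2 of that list, and not for the rest. Pearson's r of log2(FPKM + 1) over the 6 samples was between 0.833 and 0.998 for the 28 pairs of members. These values are a description, since the samples fell into 2 separate groups and the genes shared the same libraries.

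In order of level, Gimap3 was followed in MWA+PBS by Gimap4, Gimap6, Gimap8, Gimap9, Gimap7, Gimap1 and Gimap5. In MWA+2DG the order was the same except that Gimap4 stood above Gimap3. In both groups the ranges of Gimap3 and Gimap4 overlapped, and so did those of Gimap6 and Gimap8, while all other neighbours were separated. Among all tested genes, Gimap3 held place 98 by level in MWA+PBS and 60 in MWA+2DG, Gimap4 moved from place 110 to 54, and Gimap5, the lowest member, from 2586 to 1604.

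Summed over the 8 genes, the family reached 762.0, 870.9 and 719.7 FPKM in MWA+PBS and 1359, 1263 and 1395 FPKM in MWA+2DG. The means were 784.2 ± 78.0 and 1339 ± 68.3 FPKM (SD, n = 3), a ratio of 1.71. The family took 0.24% to 0.28% of the total FPKM of the MWA+PBS libraries, compared with 0.43% to 0.48% for MWA+2DG.

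Gimap4 took a larger share of this pool in MWA+2DG. Gimap4 made up 27.7%, 30.3% and 28.0% of the family FPKM in MWA+PBS and 33.2%, 33.2% and 34.5% in MWA+2DG, with no overlap between the groups. Gimap3 went the other way, from 33.1% ± 1.18 to 30.7% ± 0.731 (SD, n = 3), also without overlap. Gimap9 went from 6.10% ± 0.539 to 5.03% ± 0.114 and Gimap6 from 12.53% ± 0.196 to 11.995% ± 0.224. The shares of Gimap1 (2.66% and 2.23%) and Gimap5 (2.20% and 1.96%) did not overlap either, and those of Gimap7 and Gimap8 did. The shares are given without a test. An exact permutation test of 3 samples against 3 could not have given a two-sided p below 0.1, and no model was fitted to the shares. Since the shares sum to the whole, a gain in 1 share lowers the rest.

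**Figure D2:**
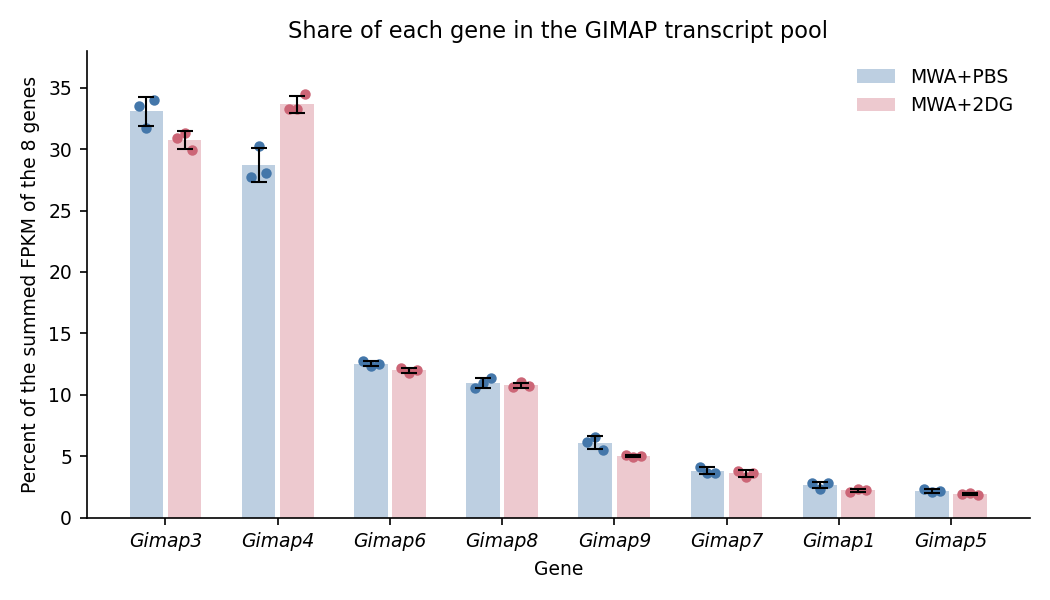
Percent of the summed FPKM of the 8 GIMAP genes taken by each gene, with bars for the group means, points for the samples and SD in black (n = 3). The mean of Gimap4 was 28.7% and 33.6%, and that of Gimap3 was 33.1% and 30.7%, in MWA+PBS and MWA+2DG.

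The samples held transcripts of other cells, which bears on every value given for a bulk sample: fewer cells of a type and less RNA per cell cannot be told apart. Of 20 T lineage genes, 18 were higher in MWA+2DG and none was lower, with a median log2 fold change of 0.45. Cd8a, which encodes a chain of CD8, rose by 0.66 (limma adjusted p = 8.94e-05), Cd5 by 0.60 (limma adjusted p = 9.6e-05), Cd28 by 0.59 (limma adjusted p = 0.000214) and Cd3e by 0.38 (limma adjusted p = 0.0139). B cell genes, from a lineage that also uses GIMAP genes, went from sums of 45.1 to 48.4 FPKM up to 109.0 to 113.3 FPKM, with 10 of 11 tested higher. Neutrophil genes went from 67.0 to 91.9 FPKM up to 1596 to 1777 FPKM, with 11 of 12 higher, macrophage genes from 605.5 to 658.5 down to 91.7 to 98.9 FPKM, with all 12 lower, and erythroid genes from 297.1 to 353.0 down to 67.9 to 85.7 FPKM, with all 10 lower. Natural killer cell genes summed to between 120.0 and 133.7 and between 93.9 and 103.2 FPKM, with Ncr1, Tyrobp and Fcer1g lower and Eomes higher of 5 tested. Tyrobp and Fcer1g are also used by macrophages and Eomes by CD8+ T cells. Proliferation genes summed to between 310.7 and 328.3 and between 208.4 and 217.0 FPKM, with 19 of 20 lower. No listed marker of these types was at 0 in all samples, and their part in the GIMAP increase was not tested. Mitochondrial genes held 21.4% to 22.8% of the FPKM in MWA+PBS libraries and 19.4% to 20.7% in MWA+2DG libraries. All 8 members were still called with the library total taken without mitochondrial, haemoglobin, immunoglobulin and ribosomal genes. That total hardly moved the log2 fold changes, with Gimap1 at 0.504 before and 0.501 after, so it could hardly change a call.

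The GIMAP genes were therefore also read against the T lineage genes of the same sample. Each sample was centred on the mean log2(FPKM + 1) of the 20 T lineage genes, which lowers the log2 fold change of every gene by 0.44. On this scale 5 of the 8 members remained higher, namely Gimap3, Gimap4, Gimap6, Gimap7 and Gimap8, and none was lower, where 3.69% of all tested genes were higher and 70.0% lower. The median over the members was 0.23, against -0.39 over all tested genes. Of the 20 T lineage genes that set the scale, 3 were called higher on it and 4 lower, with a median of 0.01. The higher ones were Cd2 (0.25), Cd8a (0.22) and Cd5 (0.16). The changes of Gimap3, Gimap6 and Gimap7 on this scale were close to those of Cd2 and Cd8a, and the differences between them were not tested.

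Gimap4 exceeded the T lineage mean by 1.42, 1.74 and 1.43 log2 units in MWA+PBS and by 2.07, 2.05 and 2.18 in MWA+2DG, without overlap between the groups. The difference was 0.57 ± 0.09 SE (adjusted p = 0.000943, limma). Gimap8 differed by 0.31 ± 0.07 (limma adjusted p = 0.00415), Gimap6 by 0.27 ± 0.06 (0.00596), Gimap3 by 0.23 ± 0.05 (0.00545) and Gimap7 by 0.24 ± 0.08 (0.0317). The 2 survival genes with the lowest levels did not pass: Gimap5 differed by 0.14 (95% interval 0.0026 to 0.28, limma adjusted p = 0.0621) and Gimap1 by 0.07 (-0.08 to 0.21, limma adjusted p = 0.373). Gimap9 differed by 0.05 (-0.19 to 0.30, limma adjusted p = 0.667). With each sample left out in turn, between 4 and 7 members passed on this scale, with 4 in the fits without MWA+PBS replicate 3, MWA+2DG replicate 4 or MWA+2DG replicate 6 and 7 without MWA+PBS replicate 2. Gimap3, Gimap4, Gimap6 and Gimap8 passed in each of these fits.

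The cluster holds other transcripts than the members. Gimap1os, an antisense transcript at Gimap1, read 4.26, 4.66 and 4.09 FPKM in MWA+PBS and 11.77, 10.05 and 11.46 FPKM in MWA+2DG. Gm28053, a read-through gene annotated across Gimap7, Gimap1 and Gimap5, read 2.66, 1.48 and 2.84 FPKM and 8.55, 8.23 and 10.46 FPKM. Both were low in every MWA+PBS sample and did not overlap between the groups, and their changes were the largest in the cluster, although the differences from Gimap4 were not tested. The log2 fold change was 1.18 ± 0.08 for Gimap1os (SE, limma adjusted p = 3.39e-05) and 1.62 ± 0.17 for Gm28053 (SE, limma adjusted p = 0.000326), and both stayed higher after T lineage scaling, at 0.74 and 1.18. Gm44226 and 4833403J16Rik, long non-coding RNAs between Gimap5 and Gimap3, rose by 0.39 and 0.34 (limma adjusted p = 0.000891 and 0.00311) and stood at -0.05 and -0.10 after that scaling (limma adjusted p = 0.552 and 0.196). The pseudogene Gm44262 was near 0 in all samples.

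The members differ in how far their reads can be told from those of these neighbours. Of the 50-base stretches in the Gimap1 transcripts, 32.4% recur on the opposite strand in Gimap1os and 4.78% on the same strand in Gm28053. Gimap3 shared 7.52% of its stretches with Gimap5, which shared 4.53% of its own with Gimap3 and 2.50% with Gm28053, and Gimap7 shared 1.39% with Gm28053. Gimap4, Gimap8 and Gimap9 shared none with any other gene. Whether strand entered the quantification is unknown here, so Gimap1 and Gimap1os are uncertain to that extent. Gimap3 and Gimap5 share their stretches on the same strand, so part of their reads could be split between them whatever the setting. When the FPKM of Gm28053 was added to Gimap1, Gimap5 and Gimap7, their log2 fold changes were 0.73, 0.82 and 0.82 (limma adjusted p = 0.000155, 6e-05 and 0.000575).

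Beyond the cluster, of the 5 protein-coding genes on each side, 6 were in the data, 4 passed the filter on low values, none of these was called higher and 2 were lower. These were Tmem176b and Tmem176a, membrane proteins of myeloid and dendritic cells, directly beyond Gimap3. Tmem176b read 6.57, 5.78 and 4.27 FPKM in MWA+PBS and 3.37, 3.06 and 3.16 FPKM in MWA+2DG, a log2 difference of -0.62 ± 0.13 SE (adjusted p = 0.00768, limma). Tmem176a changed by -0.37 ± 0.07 SE (adjusted p = 0.00563, limma). On the other side, Zfp775 and Repin1 stood at 0.05 and 0.15 (limma adjusted p = 0.822 and 0.304). AI854703, the gene next to Gimap8, was below the filter at 0.37, 0.47 and 0.43 FPKM in MWA+PBS and 0.77, 0.64 and 0.84 FPKM in MWA+2DG, without overlap. With no filter it was called higher, at 0.30 (limma adjusted p = 0.0497).

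**Figure D3:**
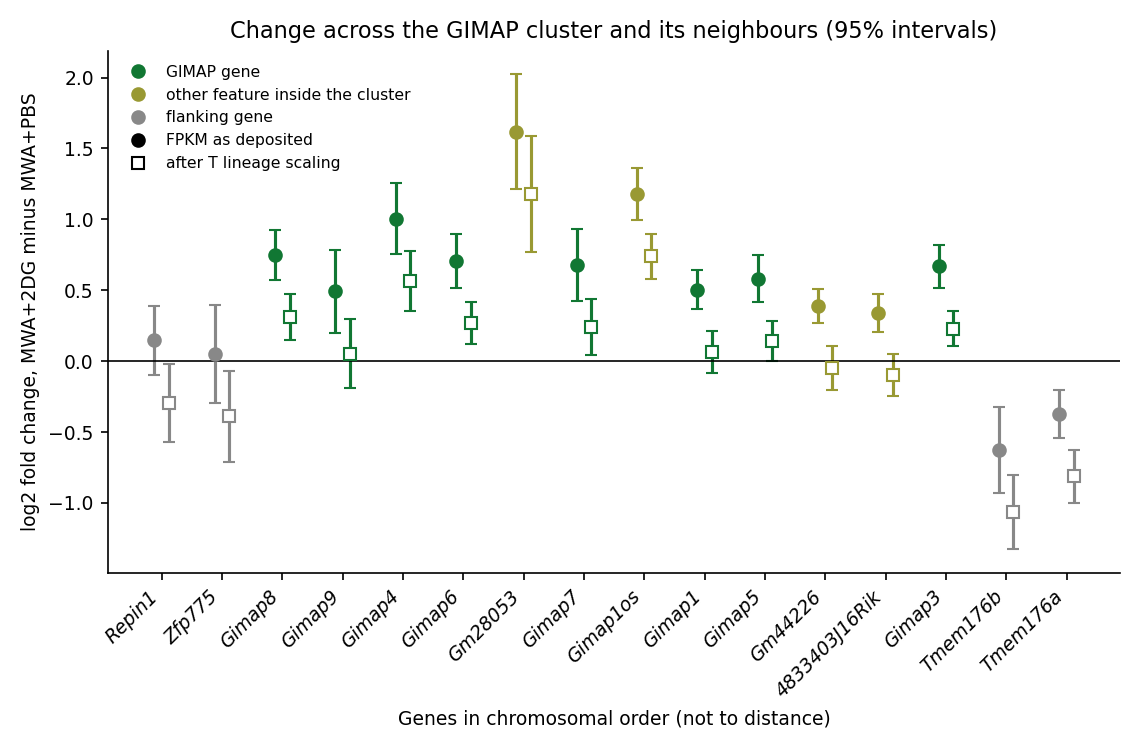
Log2 fold change (MWA+2DG minus MWA+PBS, log2(FPKM + 1) scale) with 95% intervals for the tested genes of the GIMAP cluster and its flanks, in chromosomal order. Filled circles are the values from the deposited FPKM and open squares those after T lineage scaling; all 12 tested features inside the cluster lie above 0 before scaling, and Tmem176b (-0.62) and Tmem176a (-0.37) lie below.

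Among the Bcl2 family, whose members set the threshold for apoptosis and with which Gimap3 and Gimap5 have been linked, 2 of 13 tested genes were higher and 6 lower, where 22.3% and 17.1% of all tested genes were. The median log2 fold change was -0.20. After T lineage scaling none of the 13 was higher and 10 were lower, where 3.69% and 70.0% of all tested genes were. The survival gene Bcl2 read 25.35, 26.15 and 25.85 FPKM in MWA+PBS and 34.83, 36.74 and 34.23 FPKM in MWA+2DG, a log2 difference of 0.44 ± 0.05 SE (adjusted p = 0.000487, limma). After T lineage scaling it stood at -0.0017 (limma adjusted p = 0.982). Bcl2l1, which encodes the survival protein Bcl-xL, was higher by 0.23 (limma adjusted p = 0.0462), a call lost in 10 of 13 other settings, among them T lineage scaling, which turned its sign.

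The lower genes of the Bcl2 family were of both kinds. Pmaip1, which encodes the death-promoting protein Noxa, fell from 6.46, 7.58 and 5.69 FPKM to 2.62, 2.59 and 3.12 FPKM, a log2 difference of -1.0 ± 0.11 SE (adjusted p = 0.000334, limma). The pore-forming Bak1 (-0.39, limma adjusted p = 0.00443) and the death-promoting Bcl2l11 (-0.34, limma adjusted p = 0.0132) and Bid (-0.30, limma adjusted p = 0.0205) were lower too. So were the survival genes Mcl1 (-0.20, limma adjusted p = 0.0190) and Bcl2a1a (-0.58, limma adjusted p = 0.0210), the latter uncertain because it is 1 of several near-identical copies, of which Bcl2a1b stood at -0.07 (limma adjusted p = 0.642) and Bcl2a1d at 0.46 (limma adjusted p = 0.0608).

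Of 15 autophagy genes, none was higher and 4 were lower, where 22.3% and 17.1% of all tested genes were, with a median of -0.10. After T lineage scaling 14 of the 15 were lower, where 70.0% of all tested genes were. With 1 sample left out, 2 of the 15 were called in each fit except that without MWA+PBS replicate 2, in which 6 were called, 2 of them higher. Gabarapl2, the partner of Gimap6, read 12.62, 14.87 and 10.55 FPKM in MWA+PBS and 15.05, 15.16 and 16.97 FPKM in MWA+2DG. The groups did not overlap, but the log2 fold change of 0.30 ± 0.11 did not pass (SE, limma adjusted p = 0.0738). Without MWA+PBS replicate 2, the highest of that group, it passed, at 0.41 (limma adjusted p = 0.0137). Its relative Gabarapl1 read 8.15, 9.44 and 8.96 FPKM and 2.20, 2.77 and 1.75 FPKM, a log2 difference of -1.61 ± 0.12 SE (adjusted p = 5.59e-05, limma). Map1lc3b, another ATG8 gene, changed by -0.41 (limma adjusted p = 0.00228), the autophagy kinase gene Ulk1 by -0.21 (limma adjusted p = 0.0376) and the cargo receptor gene Sqstm1 by -0.19 (limma adjusted p = 0.0388).

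GIMAP genes are used most by resting T cells, as are genes of the naive state and of quiescence. Of 18 such genes, 5 were higher and none lower, a share near the 22.3% of all tested genes, with a median of 0.08. After T lineage scaling 2 of them, S1pr1 and Ccr7, were higher and 14 lower, with a median of -0.36, where 3.69% of all tested genes were higher and 70.0% lower, with a median of -0.39. S1pr1, the receptor that lets T cells leave lymphoid organs, read 74.58, 74.47 and 75.18 FPKM in MWA+PBS and 129.22, 132.23 and 132.02 FPKM in MWA+2DG, a log2 difference of 0.80 ± 0.05 SE (adjusted p = 1.4e-05, limma). The lymph node homing receptor gene Ccr7 rose by 0.64 (limma adjusted p = 0.000177), the transcription factor gene Foxo1 by 0.47 (limma adjusted p = 0.00117) and the antiproliferative Btg2 by 0.25 (limma adjusted p = 0.0176). After T lineage scaling Foxo1 stood at 0.03 (limma adjusted p = 0.736) and Btg2 at -0.19 (limma adjusted p = 0.0350). Il7r, which encodes the receptor for the survival cytokine IL-7, stood at -0.02 (limma adjusted p = 0.830), and at -0.46 after T lineage scaling (limma adjusted p = 0.00036).

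**Figure D4:**
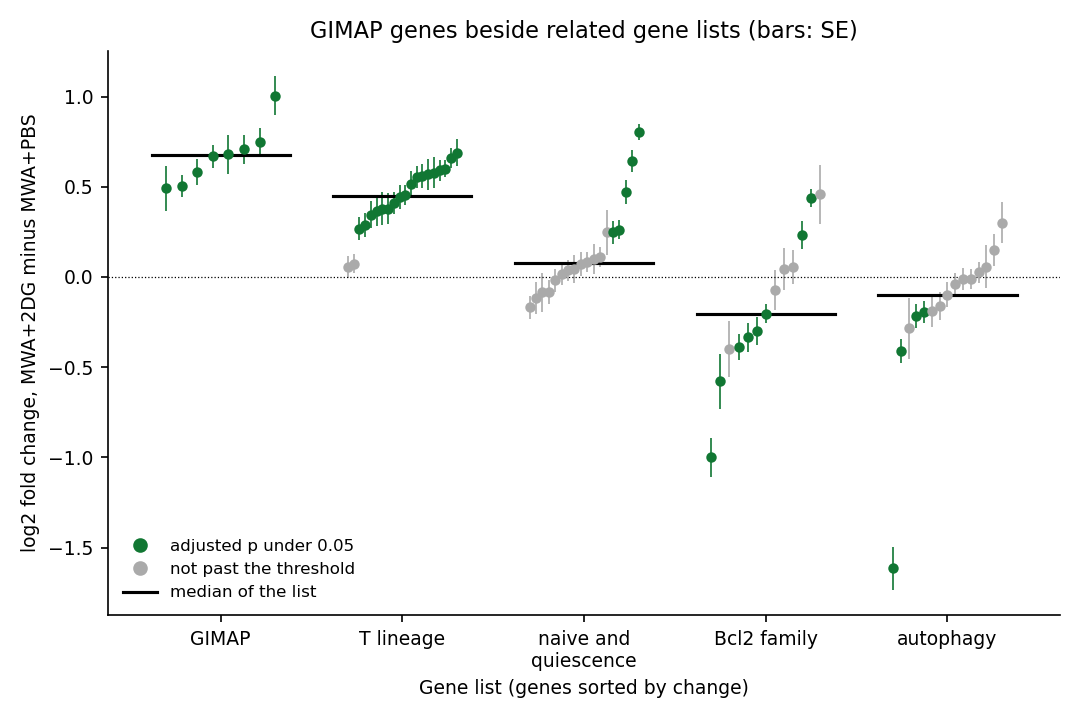
Log2 fold change (MWA+2DG minus MWA+PBS, log2(FPKM + 1) scale) with SE for each tested gene of the GIMAP, T lineage, naive and quiescence, Bcl2 family and autophagy lists, green where the limma adjusted p was under 0.05 and with the list median as a black line. All 8 GIMAP genes are green and above 0 with a median of 0.67, while the medians of the Bcl2 family and autophagy lists are -0.20 and -0.10.

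The genes outside the family whose pattern over the 6 samples was most like the mean of the members were Ikbkg, Fam69a, Tapbpl, Samd3 and Chchd7, with a Pearson's r on the log2(FPKM + 1) scale between 0.9982 for Chchd7 and 0.9995 for Ikbkg. Ikbkg, a subunit of the kinase complex upstream of NF-kB, had a log2 fold change of 0.42, and Tapbpl, a peptide editor of MHC class I, of 0.55. Such values are common where 2 groups stand apart: r was above 0.95 for 1189 genes, 9.55% of those tested.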

How the data were processed

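CD8+ T cell RNA from 6 samples was sequenced. The authors mapped reads with HISAT2 and quantified them with StringTie and ballgown, and the deposited values are FPKM with at most 2 decimals. The submitters' processing notes list cutadapt 1.9, HISAT2 2.0.4, UMI-tools and StringTie 1.3.4d and name an older mouse build, so GENCODE M21 served for names, gene order and shared sequence, while promoters are RefSeq GRCm38.p6 windows. Read depth is unknown, so no counting error is given. The MWA+PBS samples had 12480 to 12515 genes at 1 FPKM or more, and the MWA+2DG samples 12198 to 12282.

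Genes with a mean FPKM of at least 1 (12444 of 28773) were tested with limma 3.58.1 in R 4.3.3 on log2(FPKM + 1), with a trended eBayes, as a two-sided contrast of MWA+2DG with MWA+PBS and no covariate. That scale understates changes of low genes. The fit was tested on simulated data. Named genes were all members and Gimap-named features, the 3 smallest adjusted p-values of the pathway and T lineage lists (markers of other cells are given as sums and counts), genes a result turns on and the 5 genes most like the family; further genes of short lists and in the cluster were named after their values were seen. The members and lists were chosen with earlier results of these data known. Alternatives were a pseudocount of 0.1, no filter, a mean of at least 5, T lineage scaling, quantile normalization, scaling by median ratios, no trend and leaving out each sample. A library total without mitochondrial, haemoglobin, immunoglobulin and ribosomal genes, adding Gm28053 and T lineage scaling without each sample were chosen after seeing the data. Some genes of these lists are not reported here by name.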

Additional observations from a re-analysis of the deposited data

How the results depend on the processing

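The increase of Gimap3, Gimap4, Gimap6, Gimap7 and Gimap8 kept its direction and its call under every alternative run, except that Gimap7 lost its call when T lineage scaling was combined with leaving out MWA+PBS replicate 3, MWA+2DG replicate 4 or MWA+2DG replicate 6. Leaving out each sample in turn gave log2 fold changes of 0.93 to 1.12 for Gimap4, 0.71 to 0.83 for Gimap8, 0.65 to 0.77 for Gimap6, 0.63 to 0.72 for Gimap3, 0.59 to 0.78 for Gimap7, 0.51 to 0.62 for Gimap5, 0.46 to 0.54 for Gimap1 and 0.37 to 0.63 for Gimap9, and 7 to 8 members called. Gimap1 and Gimap5 lost the call with T lineage scaling, and Gimap9 lost it with that scaling, with no filter (limma adjusted p = 0.0530) and without each of 3 samples. T lineage scaling subtracts one value from every gene, so changes below it turn sign by construction: it gave 5 members called, 14 autophagy genes (all lower) and 16 naive and quiescence genes (2 higher), 9170 genes over all (5.01% of them higher, against 56.5%) and 8617 by the rule of the study (4.56% higher), and turned Bcl2 to -0.0017, Bcl2l1 to -0.21, Gabarapl2 to -0.14 and Cd3e to -0.060. Over all genes, 4907 were called at first and 4752 by the rule of the study. At an adjusted p under 0.05, the share of calls that were higher was 48.6% with median ratio scaling and 49.3% with no filter, so the split of the background depends on these choices. A mean FPKM of at least 5, which tests fewer genes, gave 2951 and 2562 of them, 5 Bcl2 family genes in place of 8, and 0 flanking genes in place of 2. With no filter, 2 autophagy genes were called in place of 4. Leaving out each sample gave 3706 to 5195 genes over all, 4544 to 5069 by the rule of the study, 5 to 8 Bcl2 family genes (5 without MWA+PBS replicate 1, MWA+2DG replicate 4 or MWA+2DG replicate 6), 2 to 6 autophagy genes, 4 to 5 naive and quiescence genes, 2 flanking genes in each fit and 4 to 7 members above the T lineage mean. Il7r, which ranged from -0.050 to 0.026 across these fits, turned to 0.026 without MWA+PBS replicate 2 and 0.0064 without MWA+2DG replicate 4, and the cause of these shifts was not tested. No paired analysis was possible because the replicates of the groups carry different numbers, 1 to 3 and 4 to 6. Read depth is unknown, so what it limits could not be measured.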
